A study of Arabidopsis thaliana with 28 samples.

Results

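ONSEN is a family of heat-responsive copia-type retrotransposons of Arabidopsis thaliana. It is described here through its 8 annotated copies, AT1G11265, AT1G21945, AT1G48710, AT1G58140, AT3G32415, AT3G59720, AT3G61330 and AT5G13205. The copies were chosen by locus identifier, and their signal was read from the windows of the deposited count table whose midpoint lies in the annotated span of a copy. These are 216 of 794311 windows, 26 to 29 for each copy. The count table and the annotation are on TAIR10 positions, and the spans are 3880 to 4295 bp long. The copies are near-identical in sequence and may share reads, so a value of a single copy is less certain than the sum over all 8.

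ONSEN copies are flanked by long terminal repeats (LTRs) whose promoter is bound by heat shock factors, and heat stress is known to induce their transcription and the build-up of extrachromosomal copies. RNA-directed DNA methylation (RdDM) is known to restrain the family. In that pathway RNA polymerase V (Pol V), whose largest subunit is NRPE1, makes non-coding scaffold transcripts at its targets, and ARGONAUTE4 (AGO4) with its small RNAs meets these transcripts and directs methylation, mostly in the CHH context. DRD1, a chromatin remodeller, and DMS3, a hinge-domain protein, act together to engage Pol V with chromatin, SUVH2 and SUVH9 recruit it through methylated DNA, and SPT5L is a Pol V-associated elongation factor that binds AGO4.

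RNA pulled down with an anti-NRPE1 antibody was sequenced from its 5′ ends (IPARE) in 24 libraries of whole seedlings of 18 days, grown at 22 °C with no heat treatment in the labels. All plants were of the Columbia ecotype. The mutants were nrpe1 (5 libraries), spt5l, ago4, dms5-1 and drd3-3 (2 libraries each), and drd1, dms3, suvh2/suvh9 (a double mutant), suvh2 and suvh9 (1 library each), and the wild type was Col-0 (6 libraries). The gene table lists DMS5 and DRD3 as other names of the gene for NRPE1, and the labels name no allele for the other mutants. Whole-genome bisulfite sequencing covered leaves of 3.5-week-old nrpe1 and Col-0 plants, 2 samples each, and is given only as the authors' average per genotype. Titles further divide the libraries into 6 sets, 5 with a tag from gp2 to gp6 and 1 untagged, for which no definition was found in the labels. There is a Col-0 library in each set and an nrpe1 library in each except gp2.

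Library totals ran from 785943 counts (drd3-3) to 6957714 counts (ago4). Values are given as raw counts or as CPM (counts scaled to a common library total), and intervals cover counting error only. Neighbouring windows share 50 bp, and a read there can count for both. Reads given for a span or flank are summed window counts and may exceed the number of distinct reads. Intervals on such sums may therefore be too narrow. The nrpe1 libraries give the background of the antibody. Anti-NRPE1 reads report Pol V-bound RNA in a whole seedling, so fewer transcribing cells and less RNA per cell cannot be told apart.

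The spans lie at the following windows, given by the start of the first and the end of the last window. AT1G11265 covers 1:3781201-3785300, AT1G21945 covers 1:7717801-7722200, AT1G48710 covers 1:18013651-18017750 and AT1G58140 covers 1:21525451-21529400. AT3G32415 covers 3:13369801-13373750, AT3G59720 covers 3:22060051-22064000, AT3G61330 covers 3:22695901-22700150 and AT5G13205 covers 5:4208551-4212650. The gene table annotates all 8 as pseudogenes and gives no strand, exons or LTR positions, so the ends are called left (lower coordinate) and right.

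The authors' window lists place 182 of the 216 windows among the RdDM targets of Pol V (RdDM class), 31 among its other transcribed windows (non-RdDM class) and 3 in the class not transcribed by Pol V. Of all windows of the genome, 19.9% are in the RdDM class, 25.7% in the non-RdDM class and 54.3% in the class without Pol V transcription. Every window of AT1G21945 (29), AT1G48710 (27) and AT3G32415 (26) was in the RdDM class, and so were 25 of the 26 windows of AT3G59720. AT3G61330 had 17 RdDM and 11 non-RdDM windows, and AT1G58140 had 20 and 6. AT5G13205 had 21 RdDM, 5 non-RdDM and 1 window without Pol V transcription, and AT1G11265 had 17, 8 and 2. Since the labels tie these lists to nrpe1 and Col-0 of gp3, gp4 and the untagged set, the classes are not independent of the counts in those libraries.

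The signal of all 8 copies fell in nrpe1. Summed over the family, the nrpe1 libraries held 27.7 (untagged), 17.0 (gp3), 48.3 (gp4), 16.0 (gp5) and 20.2 CPM (gp6), against a lowest value of 207.5, a median of 292.5 and a highest value of 366.5 CPM in the Col-0 libraries. The groups did not overlap, and the highest nrpe1 library stood far below the lowest Col-0 library. The means were 25.8 ± 13.4 CPM in nrpe1 (SD, n = 5) and 298.9 ± 56.6 CPM in Col-0 (SD, n = 6). Within the sets, the log2 ratio of nrpe1 to Col-0 was -3.66 (untagged), -4.11 (gp3), -2.92 (gp4), -4.19 (gp5) and -3.36 (gp6), with no test for the sum. In the sets that were not used for the class lists, the nrpe1 family sums were 16.0 and 20.2 CPM and the Col-0 sums 207.5 to 291.9 CPM.

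AT3G61330 shows the pattern of the copies to which most Col-0 signal was assigned. It had 2.39 (untagged), 3.39 (gp3), 6.40 (gp4), 0.666 (gp5) and 3.57 CPM (gp6) in nrpe1, against 46.1, 60.2 and 77.3 CPM as the lowest, median and highest Col-0 library. The groups were widely separated, and the log2 change was -4.34 ± 0.46 (SE; adjusted p = 1.18e-07, edgeR quasi-likelihood F-test, Benjamini-Hochberg adjusted over all gene bodies). By the same test, AT1G58140 changed by -4.23 ± 0.49 (adjusted p = 2.38e-07) and AT5G13205 by -3.70 ± 0.50 (adjusted p = 1.09e-06). In AT1G58140 the nrpe1 libraries lay between 1.91 and 9.89 CPM and the Col-0 libraries between 43.7 and 82.7 CPM. In AT5G13205 they lay between 1.33 and 15.1 CPM in nrpe1 and between 50.5 and 81.3 CPM in Col-0.

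AT3G59720 kept the fewest nrpe1 reads. It had 3.35 CPM in the untagged nrpe1 library, 0.339 CPM in that of gp3 and no read in those of gp4, gp5 and gp6, against a lowest value of 10.01, a median of 17.0 and a highest value of 35.4 CPM in Col-0. Its nrpe1 window counts, 8 in all and possibly fewer distinct reads, came from 2 libraries, and every Col-0 library was above both. Its log2 change was -4.66 ± 0.69 (SE; adjusted p = 4.01e-06 by edgeR quasi-likelihood F-test, Benjamini-Hochberg adjusted), a fitted value that depends on few nrpe1 reads. This was the largest change of the 8, but in 5 of 19 alternatives another copy changed more: AT3G59720 had -3.89 against -4.03 in AT3G61330 without the untagged Col-0 library, and -3.72 against -4.46 in AT1G58140 without the nrpe1 library of gp4. The others were the fits without the nrpe1 library of gp3 or gp6 and with all windows that overlap a copy. AT1G48710 changed by -4.06 ± 0.58 and AT1G11265 by -3.67 ± 0.45, with nrpe1 libraries at 0 to 3.35 and 1.75 to 3.05 CPM and Col-0 libraries at 8.19 to 42.5 and 20.9 to 45.2 CPM.

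AT1G21945 changed the least, here and in all 19 alternatives. It had 8.13 (untagged), 2.37 (gp3), 9.31 (gp4), 8.00 (gp5) and 7.14 CPM (gp6) in nrpe1, against 14.6, 25.7 and 44.1 CPM as the lowest, median and highest Col-0 library. The groups did not overlap, though 4 of the 5 nrpe1 libraries kept more than 7 CPM, and the log2 change was -2.14 ± 0.46 (SE; adjusted p = 0.000317 by edgeR quasi-likelihood F-test, Benjamini-Hochberg adjusted). AT3G32415, the copy with the least signal in Col-0, had 3.35, 0.678, 3.49, 0 and 0 CPM in the nrpe1 libraries of the untagged set, gp3, gp4, gp5 and gp6, against 4.55, 11.1 and 17.0 CPM as the lowest, median and highest Col-0 library. Here too all nrpe1 libraries lay below all Col-0 libraries, with a change of -3.07 ± 0.57 (adjusted p = 6.79e-05).

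Thus 8 of 8 copies were called lower, where 43.7% of the 8470 gene bodies tested were called lower in nrpe1. The median log2 change was -3.88 over the copies and -0.50 over all gene bodies tested. The test was open only to gene bodies with enough counts, which the copies reached through their Col-0 libraries. The share of all gene bodies or flanks whose nrpe1 and Col-0 libraries did not overlap was not counted. The lack of overlap is thus not shown to be particular to the copies. The scaling moves these values: the median of all gene bodies was -0.38 with library totals and -1.07 when libraries were scaled to the class without Pol V transcription, and the median of the copies was -3.70 and -4.46. When the 8 copies were summed to 1 feature before the fit, it changed by -3.71 ± 0.38 (SE) on the log2 scale, a value free of how reads were split among copies. Without the Col-0 library of the untagged set, gp2, gp3 or gp4, AT3G32415 had too few counts to be tested and 7 of 7 copies were called.

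**Figure D1:**
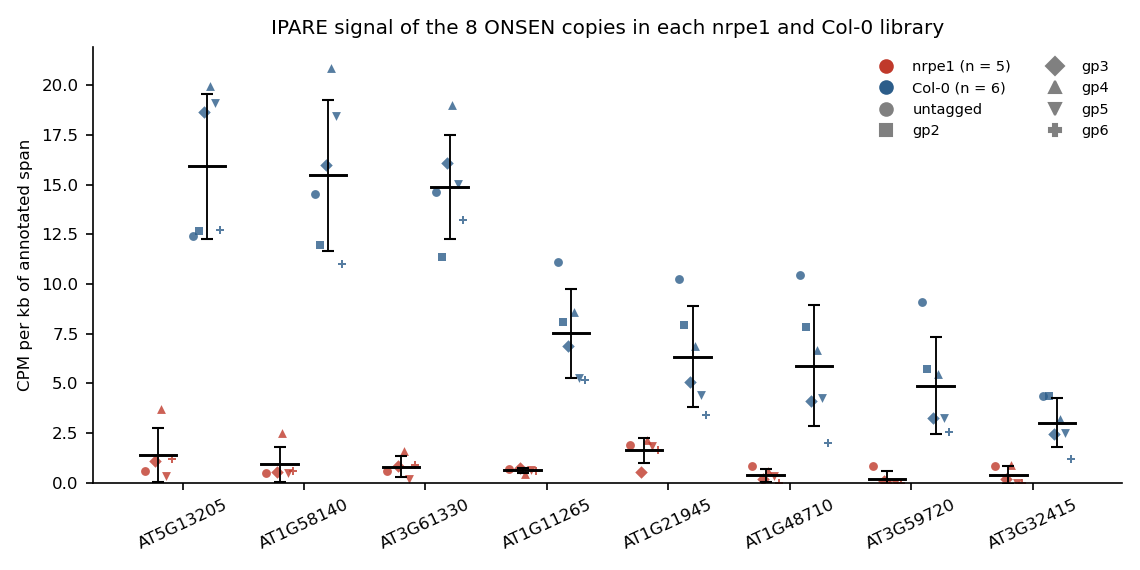
IPARE signal of each ONSEN copy in CPM per kb of annotated span, with nrpe1 libraries (red) left of Col-0 libraries (blue), marker shapes for the sets, and bars for the mean ± SD. The copies are ordered by their Col-0 mean, from 15.9 CPM per kb in AT5G13205 to 3.02 CPM per kb in AT3G32415. No nrpe1 library reaches a Col-0 library of the same copy, and the share of other gene bodies that separate in this way was not counted.

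The copies differed in level within Col-0. Per kb of span, AT5G13205 averaged 15.9 ± 3.7, AT1G58140 15.5 ± 3.8 and AT3G61330 14.9 ± 2.6 CPM (SD, n = 6). The other 5 followed at 7.51 (AT1G11265), 6.33 (AT1G21945), 5.90 (AT1G48710), 4.89 (AT3G59720) and 3.02 CPM per kb (AT3G32415). The first 3 could not be ordered, since AT5G13205 exceeded AT1G58140 in 4 of 6 libraries and AT1G58140 exceeded AT3G61330 in 3 of 6. AT3G61330 exceeded AT1G11265 in 6 of 6 libraries, and so did AT1G11265 over AT1G21945 and AT3G59720 over AT3G32415. Each of these 3 steps had p = 0.0312 in an exact two-sided paired permutation test, the smallest that 6 libraries allow, and an adjusted p of 0.0729 over the 7 neighbouring pairs, so no step passed the threshold of 0.05.

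In spt5l, ago4 and Col-0 the balance among copies moved with the set of the library. AT1G58140, AT3G61330 and AT5G13205, grouped after their values were seen, held 48.8% of the family's reads in spt5l and 47.6% in Col-0 of the untagged set, and 48.2% in ago4 and 51.2% in Col-0 of gp2. In gp3 the shares were 67.6% in spt5l, 68.3% in ago4 and 69.8% in Col-0. In the Col-0 libraries of gp4, gp5 and gp6 the shares were 65.8%, 72.6% and 71.9%. The exact binomial intervals of spt5l and Col-0 overlapped in both their sets (46.3 to 51.3% and 45.4 to 49.8% in the untagged set), while those of Col-0 in gp3 and in the untagged set did not (67.3 to 72.1% in gp3). In drd3-3 these copies held 39.6% in gp5 (25.8 to 54.7%) and 38.1% in gp6 (23.6 to 54.4%), below the Col-0 intervals of both sets (68.5 to 76.4% and 65.6 to 77.7%), from 48 and 42 family reads. In nrpe1 the shares varied from 24.1% in the untagged set to 65.1% in gp4, on 17 to 83 reads. The nrpe1 share in gp5 was 25% (9.77 to 46.7%), also below the Col-0 interval of that set. In gp6 it was 52.9% (27.8 to 77.02%), and the intervals of nrpe1 and Col-0 overlapped. The dms5-1 shares were 75.7% in gp5 (58.8 to 88.2%) and 55.3% in gp6 (38.3 to 71.4%). Both dms5-1 intervals overlapped those of Col-0. What libraries of a set have in common was not tested.

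The reads were not spread evenly along the element. Windows within 600 bp outside either end of the spans, 4 on each side and 64 in all, are called flanks. This distance was chosen after the profiles were seen, and which flanking windows hold LTR sequence was not read here. In Col-0 the flanks of every copy held more reads per window than the span in 6 of 6 libraries, with 5.02 ± 2.27 CPM per flank window and 1.38 ± 0.26 CPM per span window over the family (SD, n = 6). The ratio of pooled counts ran from 2.78 in AT3G61330 to 5.20 in AT1G21945. By library, it was 5.35 (untagged), 4.30 (gp2), 1.65 (gp3), 3.49 (gp4), 3.08 (gp5) and 3.60 (gp6), so the Col-0 library of gp3 held much less flank signal than the other 5. The highest Col-0 window of all 8 copies was a flank window, and the peaks of the flanks had their midpoints 85 to 347 bp outside the left end and 149 to 357 bp outside the right end. In AT1G58140 these peaks held 298 reads on the left and 301 on the right, against a median of 42.5 reads per span window (6 Col-0 libraries pooled). Of the flank windows, 47 were in the RdDM class and 17 in the non-RdDM class.

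**Figure D2:**
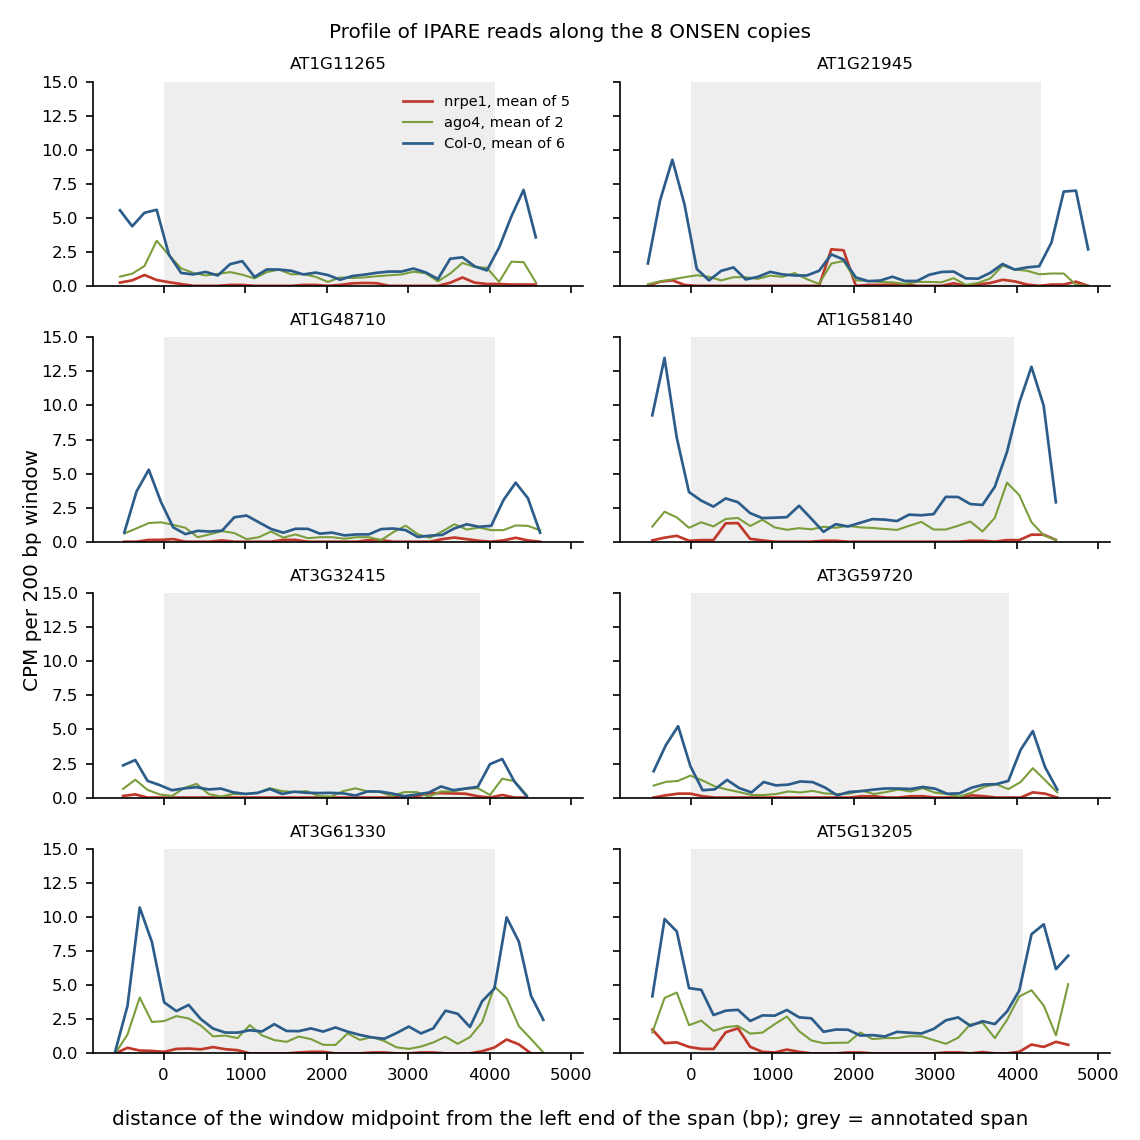
Mean CPM per window of 200 bp along each ONSEN copy in nrpe1 (red, 5 libraries), ago4 (green, 2 libraries) and Col-0 (blue, 6 libraries), by distance of the window midpoint from the left end of the annotated span (grey). In Col-0 the signal peaks just outside both ends of all 8 copies, and in nrpe1 it stays low except for short stretches in AT1G21945, AT1G58140 and AT5G13205.

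The flanks fell in nrpe1 as the spans did. The family's flanks held 31.6 (untagged), 5.77 (gp3), 17.5 (gp4), 14.0 (gp5) and 17.8 CPM (gp6) in nrpe1, against 143.1 CPM in the lowest and 556.7 CPM in the highest Col-0 library. These groups did not overlap. The flanks of 8 of 8 copies were called lower, with log2 changes from -3.27 (AT1G21945) to -1.93 (AT5G13205) and adjusted p from 0.000401 to 0.0275 (edgeR quasi-likelihood F-test, Benjamini-Hochberg adjusted), where 68.2% of the 9803 gene flanks tested were called lower. This fit gave a median of -2.91 over the flanks of the copies and -2.89 over all flanks, with 6683 lower and 2174 higher calls among all flanks. The size of the fall was thus not particular to the copies. Their flanks reached the count filter through the Col-0 libraries, so a higher call was hardly open to them. With scaling to the class without Pol V transcription there were 7525 lower and 3 higher calls, a median of -5.21, and 8 of 8 copies lower by 4.04 to 5.75 on the log2 scale. AT3G59720 was not called without the nrpe1 library of gp3 (adjusted p = 0.0805) or of gp4 (adjusted p = 0.0511).

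At the level of single windows the counts were low. Of the span windows, 1, in AT1G58140, had enough counts for the test, and it was called lower, as were all 16 flank windows tested. Windows reached the count filter through their Col-0 reads, so these calls follow from the filter and say nothing about the other windows. Of 15296 windows tested in all, 77.6% were called lower (11868 lower and 2750 higher, or 12224 and 1 with scaling to the class without Pol V transcription). The tested span window was too thinly covered to be tested when any Col-0 library was left out. With every window of at least 1 count in 2 libraries tested, 122 of the 216 span windows and 59 of the 64 flank windows were called lower and none higher, against 19.6% of 436444 windows called lower. The called span windows were 23 of 28 in AT3G61330, 23 of 27 in AT5G13205 and 22 of 26 in AT1G58140, but 1 of 26 in AT3G32415. All 216 span windows held a Col-0 read and 92 held an nrpe1 read. The others reached the looser filter through Col-0 alone and could not be called higher. The 19.6% is over windows of all classes, while 182 of the 216 span windows are in the RdDM class. That class is tied to some of the same libraries.

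In 3 of the 8 copies, nrpe1 reads were concentrated in a few windows, while in the other 5 no window held more than 5. In AT1G21945, the adjacent windows 1:7719451-7719650 and 1:7719601-7719800 held 21 and 20 of the copy's 58 nrpe1 counts, with reads in all 5 nrpe1 libraries. In Col-0 they held 44 and 37 of its 625 counts. In mean CPM these windows stood at 2.68 ± 1.22 and 2.61 ± 1.34 in nrpe1 (SD, n = 5), against 2.31 ± 0.69 and 1.93 ± 0.68 in Col-0 (SD, n = 6), differences within the spread of the libraries. In AT1G58140, 2 windows with midpoints 428 and 578 bp from the left end held 11 nrpe1 reads each, against 60 and 63 Col-0 reads. In AT5G13205 the windows at 429 and 579 bp from the left end held 13 and 15 nrpe1 reads, against 64 and 61 Col-0 reads. All 4 of these last windows are outside the RdDM class, while both windows of AT1G21945 are in it. The lists are tied to some of the same nrpe1 libraries, so the class of a window picked for its nrpe1 reads is not independent of the pick. Adjacent windows share 50 bp and can share reads. The windows of AT1G58140 and AT5G13205 lie at nearly the same distance from the left end. Near-identical copies may share reads, so these 2 copies may not be separate cases. Per pooled library total, nrpe1 stood at 20.6% of Col-0 in AT1G21945, 5.77% in AT1G58140 and 8.66% in AT5G13205. The nrpe1 library of gp4 held 16 of 58, 17 of 32 and 26 of 50 of these copies' nrpe1 counts. Without it the values were 18.4%, 3.34% and 5.12%. Without the 6 windows, which were picked for their nrpe1 reads, the values were 6.94%, 2.01% and 4.22%.

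**Figure D3:**
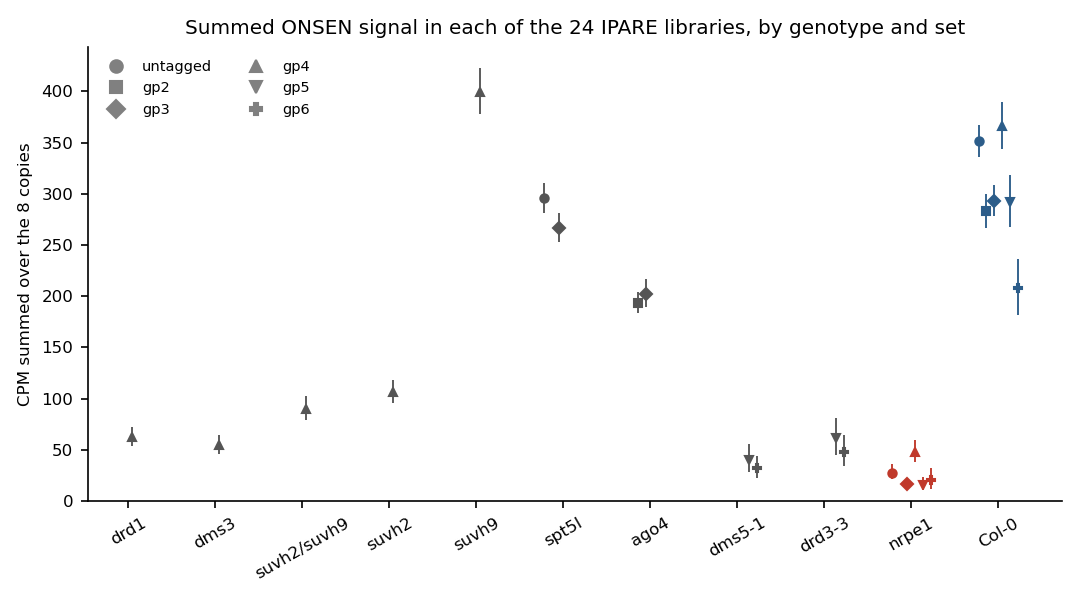
CPM summed over the 8 ONSEN copies in each of the 24 IPARE libraries, by genotype, with marker shapes for the sets and 95% exact Poisson intervals. The dms5-1, drd3-3, drd1, dms3 and nrpe1 libraries lie at or below 62.3 CPM, suvh2 and the double mutant near 100, and spt5l, ago4, suvh9 and Col-0 at 193.7 CPM or more.

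Both mutants named for the NRPE1 gene lost most of the family's signal. The family sum was 40.4 and 32.1 CPM in dms5-1 and 61.1 and 47.6 CPM in drd3-3, in gp5 and gp6, against 291.9 and 207.5 CPM in the Col-0 libraries of these sets. In a model of 19 libraries, 8 of 8 copies were called lower in dms5-1 than in Col-0, with log2 changes from -4.43 (AT1G48710) to -1.92 (AT1G21945), where 32.5% of 15495 gene bodies tested were called lower (edgeR quasi-likelihood F-test, Benjamini-Hochberg adjusted). In drd3-3, 5 of 8 copies were called lower than in Col-0, against 15.2% of gene bodies. AT3G61330 changed by -3.84 ± 0.67 (adjusted p = 0.00155), AT5G13205 by -3.21, AT1G48710 by -2.29, AT1G58140 by -2.20 and AT1G11265 by -1.86.

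The other 3 copies missed the threshold in drd3-3. AT3G32415 had 5.09 and 7.93 CPM in drd3-3 of gp5 and gp6, against 9.79 and 4.55 CPM in Col-0 of these sets, so the order of the genotypes differed between the sets. Its log2 change was -0.63 ± 0.72 (adjusted p = 0.562). AT3G59720 changed by -1.61 ± 0.82 (adjusted p = 0.169) and AT1G21945 by -1.29 ± 0.57 (adjusted p = 0.111). These counts rest on shallow libraries: without either dms5-1 library, 5 copies were called in dms5-1 (AT1G21945 and AT3G32415 were lost both times), without either drd3-3 library, 1 copy (AT3G61330) was called in drd3-3, and with the set as a replicate block 7 and 3 copies were called. Scaled to the class without Pol V transcription, 7 copies were called in drd3-3. Over all gene bodies that scaling gave 3938 lower and 65 higher calls in drd3-3, in place of 2359 and 455.

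By the main fit, no copy was called different from nrpe1 in either mutant. Compared with nrpe1, 0 of 8 copies were called higher in dms5-1, where 0% of gene bodies were called higher and none lower. At an unadjusted p under 0.05, 1 copy was higher in dms5-1 (AT1G58140, log2 1.79), and DESeq2 also called 0 copies. In drd3-3, 0 copies were called higher than in nrpe1 against 10.9% of gene bodies, with log2 values from 0.14 to 2.56. There, 4 copies had an unadjusted p under 0.05, and DESeq2 and the fit with the set as a replicate block called 2 each. The gp5 family sum was 61.1 CPM (45.03 to 80.97) in drd3-3, 40.4 (28.47 to 55.73) in dms5-1 and 16.0 (10.25 to 23.8) in nrpe1. In gp6 it was 47.6 (34.31 to 64.35), 32.1 (22.71 to 44.05) and 20.2 (11.78 to 32.37). Counting intervals of drd3-3 and nrpe1 were apart in both sets, those of dms5-1 and nrpe1 only in gp5. The gap between drd3-3 and nrpe1 in gp6 was small. Reads counted in neighbouring windows make these intervals too narrow, so being apart is not a test. The nrpe1 library of gp4, at 48.3 CPM, stood above drd3-3 of gp6 and both dms5-1 libraries. These sums were not tested, and neither was the difference between dms5-1 and drd3-3.

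In spt5l and ago4 the copies kept most of their signal. The family sum was 295.5 and 266.9 CPM in spt5l, against 351.5 and 293.2 CPM in Col-0 of the same sets (untagged and gp3). It was 193.7 and 202.5 CPM in ago4, against 283.1 and 293.2 CPM in Col-0 (gp2 and gp3). Each mutant library was thus below its Col-0 partner, and in CPM both ago4 libraries were below all 6 Col-0 libraries. Relative to the counts of the class without Pol V transcription, ago4 stayed below its partners but above the Col-0 library of gp6. No copy was called lower in either, where 0.129% of gene bodies were called lower in spt5l and 1.17% in ago4. No copy had an unadjusted p under 0.05 in either by edgeR's quasi-likelihood test, and DESeq2 called 0 copies. Log2 changes ran from -0.39 to 0.15 in spt5l and from -0.56 to 0.06 in ago4, with standard errors of 0.44 to 0.64, so a loss of this size was not detectable with 2 libraries. The median of the copies was -0.32 in ago4 with TMM scaling and -0.87 with scaling to the class without Pol V transcription. Among all gene bodies, spt5l had 20 lower and 7 higher calls (8 and 5 with library totals), and ago4 had 181 and 230 (203 and 113 with scaling to that class).

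Against nrpe1, the copies were far higher in both. All 8 were called higher in spt5l (log2 1.92 to 4.19), where 34.1% of gene bodies were, and all 8 in ago4 (log2 1.45 to 3.77), where 34% were. AT1G21945 was lowest in both comparisons. It lost its call in ago4 without either ago4 library (adjusted p = 0.293 and 0.0593), and AT3G32415 lost its call in spt5l without the untagged spt5l library.

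In ago4 the flanks kept a smaller part of their Col-0 signal than the spans did. The flank sum was 97.9 CPM in ago4 against 360.6 CPM in Col-0 in gp2, and 84.3 CPM in ago4 against 143.1 CPM in Col-0 in gp3. Both ago4 libraries were below every Col-0 library. By library, the flank to span ratio per window was 1.71 and 1.41 in ago4, against 4.30 and 1.65 in Col-0 of the same sets. In gp2 the intervals of the ratio were far apart (1.55 to 1.87 in ago4, 3.98 to 4.65 in Col-0), and in gp3 they overlapped (1.24 to 1.59 and 1.50 to 1.80). In gp3 the ratio was also low in nrpe1, at 1.15 (0.620 to 2.02), the lowest of the 5 nrpe1 libraries, but it was 3.85 in spt5l. The flanks of 1 copy, AT1G21945, were called lower in ago4 (log2 -3.13 ± 0.70, adjusted p = 0.00383 by edgeR quasi-likelihood F-test, Benjamini-Hochberg adjusted), where 4.77% of gene flanks were called lower. AT1G21945 flanks had 5.03 and 1.85 CPM in ago4, against 50.3 and 10.2 CPM in Col-0 of gp2 and gp3. At an unadjusted p under 0.05 there were 4 copies, and DESeq2 called 4. When either ago4 library was left out no call remained, and AT1G21945 had an adjusted p of 0.0502 or 0.407. No flank was called lower in spt5l (2.09% of gene flanks, 0 copies at an unadjusted p under 0.05, 0 by DESeq2). The flanks of 8 copies were called lower in dms5-1 and of 7 in drd3-3, where 57% and 28.3% of gene flanks were called lower. Lower and higher flank calls numbered 732 and 444 in ago4, 8755 and 1126 in dms5-1 and 4353 and 1449 in drd3-3, and 883 and 140, 10760 and 36, and 8853 and 83 with scaling to the class without Pol V transcription. The difference between flanks and spans was not tested across libraries.

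Relative to the Col-0 library of the same set, each mutant library was also given a retained share, scaled to the counts in windows not transcribed by Pol V, with ribosomal DNA windows left out. The family's spans retained 3.20%, 4.22%, 6.52%, 3.95% and 8.55% in nrpe1 (untagged, gp3, gp4, gp5 and gp6). The whole RdDM class retained 5.13%, 13.7%, 3.71%, 6.54% and 8.84% there, so the family was above the class in gp4 and below it in the other 4, in gp6 by less than its counting interval. In dms5-1 the family retained 12.5% and 13.2% and the RdDM class 4.89% and 9.01%. In drd3-3 the family retained 17.4% and 20.8% and the class 20.7% and 24.8%. In spt5l these shares were 61.3% and 75.2% for the family and 68.5% and 81.9% for the class, and in ago4 67.3% and 59.4% for the family and 74.5% and 64.3% for the class. The flanks retained 49.9% and 175.7% in spt5l (untagged and gp3) and 26.7% and 50.65% in ago4 (gp2 and gp3), where the gp3 values rest on the Col-0 library with little flank signal.

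**Figure D4:**
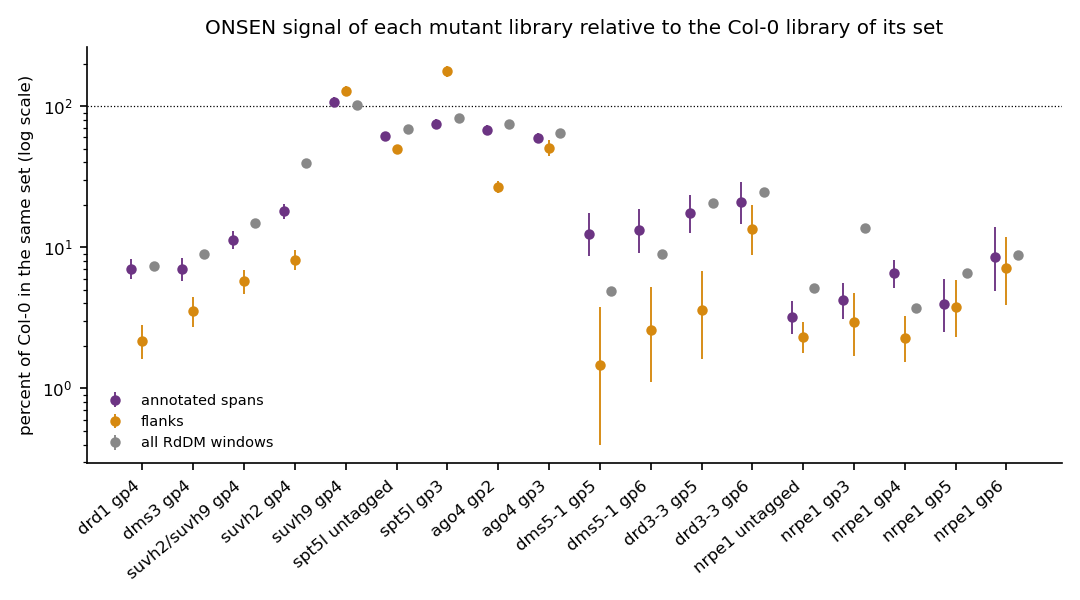
Percent of the same-set Col-0 signal kept by each mutant library (log scale) in the spans of the 8 ONSEN copies, in their flanks and in all RdDM windows, scaled to windows without Pol V transcription, with 95% counting intervals. In suvh2 the family stands at 17.9% and the RdDM class at 39.7%, and in suvh9 both stand near 100%.

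The 5 genotypes with a single library, all of gp4, have no replicate check. In drd1 and dms3, whose products act in the same complex, the family sum was 62.3 CPM (179 reads, 95% exact Poisson interval in the plot by genotype) and 54.8 CPM (135 reads), beside 48.3 CPM (83 reads) in nrpe1 and against 366.5 CPM (1001 reads) in Col-0 of this set. Both retained 6.99% of Col-0 (5.93 to 8.20% in drd1 and 5.80 to 8.37% in dms3), and the RdDM class 7.40% and 8.91%. Among copies, AT1G11265 kept the least in drd1, with 7 reads against 95 in Col-0, and AT3G59720 the least in dms3, with 5 reads against 58 in Col-0.

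The family's signal was lower in suvh2 and in the double mutant, and not in suvh9. The family sum was 106.6 CPM (359 reads) in suvh2, 399.7 CPM (1229 reads) in suvh9 and 90.3 CPM (220 reads) in the double mutant, against 366.5 CPM in Col-0. The retained share was 17.9% (15.8 to 20.2%) in suvh2, 106.9% (98.3 to 116.4%) in suvh9 and 11.3% (9.74 to 13.1%) in suvh2/suvh9. The RdDM class kept 39.7% in suvh2, 101.1% in suvh9 and 14.9% in the double mutant. All 8 copies kept less than the pooled class in suvh2, from 10.3% in AT3G32415 to 23.4% in AT1G21945. The upper bounds of their counting intervals, at most 34.8%, were below the class value. The copies may share reads and rest on the same suvh2 and Col-0 libraries, so they are not 8 independent observations. The share of RdDM windows below the class value was not counted. The flanks kept 8.10% (6.84 to 9.55%) in suvh2 and 127.3% in suvh9. In suvh9, AT1G21945 stood at 146.3% (110.3 to 195%) and AT3G61330 at 132.1% (110.7 to 157.9%), while AT3G32415 stood at 58.9% with an interval of 33.1 to 103%, from 23 reads in suvh9 and 34 in Col-0.

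DNA methylation of the copies was compared in the windows that have a deposited level in both nrpe1 and Col-0. The levels are the authors' averages, so their depth is unknown and no error or test is given. Only part of the element could be read: 132 of 216 windows had CHH levels in both genotypes, 61.1% against 84.95% of all RdDM windows. Coverage differed by copy, with levels in all windows of AT1G21945 and AT3G32415 but in 3 of 27 windows of AT1G11265, 5 of 28 of AT3G61330, 7 of 26 of AT1G58140 and 14 of 27 of AT5G13205.

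CHH methylation was lower in nrpe1 in 7 of the 8 copies. It averaged 6.10% in nrpe1 and 13.1% in Col-0 over the copies, against averages of 6.95% in nrpe1 and 9.78% in Col-0 over the RdDM class. It was lower in nrpe1 in 116 of 132 windows of the copies, and in 82098 of 134490 windows of the RdDM class. AT1G21945, read in all 29 windows, had 6.02% in nrpe1 and 15.7% in Col-0, and 28 of these windows were lower. AT3G59720 had 6.15% in nrpe1 and 13.0% in Col-0, AT1G48710 had 7.71% and 11.1%, and AT5G13205 had 6.26% and 19.4%. The largest differences were those of AT3G61330, with 6.47% in nrpe1 and 24.0% in Col-0, and AT1G58140, with 4.44% and 18.8%, from 5 and 7 windows. AT1G11265 had 7.42% and 19.5%.

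AT3G32415 was the exception. Its CHH level was 4.74% in nrpe1 and 4.51% in Col-0 over 26 windows, of which 12 were lower in nrpe1. Its Col-0 level was thus below the nrpe1 level of 6 of the other 7 copies, and it was also the copy with the fewest IPARE reads per kb in Col-0. Its 6 flank windows had 5.41% in nrpe1 and 7.69% in Col-0. Over all flanks the contrast was steeper, with 1.84% CHH in nrpe1 and 18.9% in Col-0 in 31 windows. The flanks of AT5G13205 had 1.66% in nrpe1 and 32.6% in Col-0, and those of AT1G58140 had 0.578% and 31.6%, from 4 windows each.

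**Figure D5:**
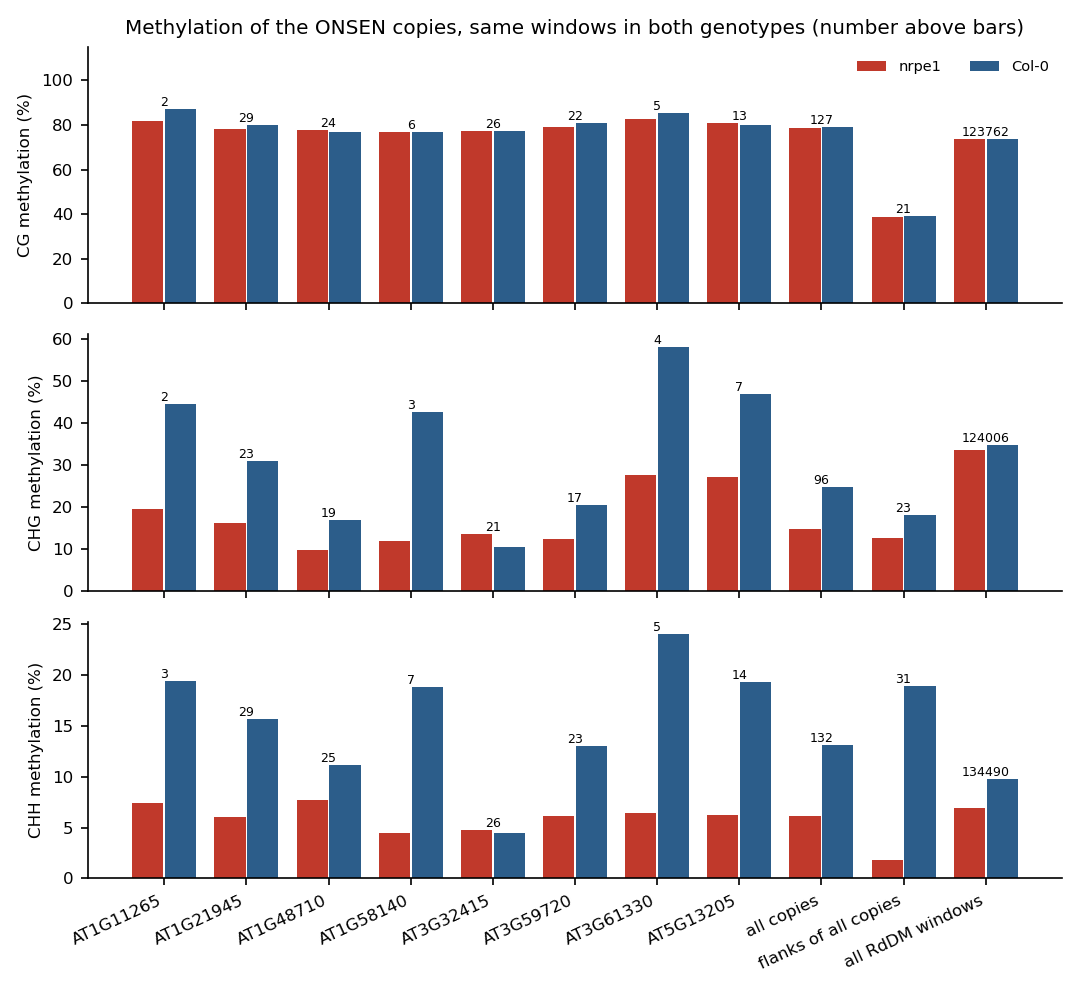
Mean methylation in the CG, CHG and CHH contexts over the windows with a level in both genotypes, nrpe1 (red) left of Col-0 (blue), for each ONSEN copy, all copies, their flanks and all RdDM windows, with the number of windows above each pair and no error bars because the values are the authors' averages. CG is near 79% in both genotypes over the copies, and CHH is lower in nrpe1 everywhere but in AT3G32415.

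CHG methylation showed the same order of the genotypes, and CG methylation of the spans hardly differed. CHG averaged 14.9% in nrpe1 and 24.8% in Col-0 over 96 windows of the copies, against 33.6% and 34.7% over the RdDM class. It was lower in nrpe1 in 75 of these 96 windows, and in 52587 of 124006 windows of the RdDM class. It was 16.2% in nrpe1 and 31.0% in Col-0 in AT1G21945, and 27.2% and 46.9% in AT5G13205. AT3G32415 again ran the other way, with 13.6% in nrpe1 and 10.5% in Col-0. CG averaged 78.6% in nrpe1 and 79.2% in Col-0 over 127 windows, and no copy with more than 2 windows differed by more than 2.66 percentage points. CG in the flanks was 38.9% in nrpe1 and 39.3% in Col-0 over 21 windows, but single copies went both ways on 3 or 4 windows each, with 24.9% in nrpe1 and 10.9% in Col-0 in AT1G11265, 62.0% and 71.9% in AT3G59720, and 72.9% and 79.1% in AT3G32415.

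No gene of the heat response was called. Of 13 genes listed for that response, such as heat shock factors and heat shock proteins, 4 had enough counts and 0 were called between nrpe1 and Col-0 by edgeR quasi-likelihood F-test, Benjamini-Hochberg adjusted, where 43.7% of gene bodies were called lower and 1.71% higher (none higher with scaling to the class without Pol V transcription). Their median log2 value was 0.43, and 1 had an unadjusted p under 0.05, DREB2A, a drought and heat response factor, at 1.05 with an adjusted p of 0.0663. With all genes of at least 1 count in 2 libraries tested, DREB2A had an adjusted p of 0.0288. HSP90.1, a heat shock protein and the member with the most Col-0 signal, had 21.2 ± 23.4 CPM in nrpe1 and 16.9 ± 18.6 CPM in Col-0 (SD, n = 5 and 6). The libraries of each genotype thus varied more than the means differed.

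Of 5 loci of other transposons, 4 had enough counts and all 4 were called lower in nrpe1 (edgeR quasi-likelihood F-test, Benjamini-Hochberg adjusted), where 43.7% of gene bodies were. They reached the count filter through Col-0, with 0 to 4 nrpe1 reads each. Their median log2 change was -6.39, or -5.53 with EVADE at the bound that its count of 0 allows. AT5G17125, the locus of the copia-type element EVADE, had 0 reads in the 5 nrpe1 libraries, against 177 reads (9.02 ± 3.06 CPM) in Col-0, and was thus at least 26.6-fold lower, taking 3 counts over the pooled nrpe1 libraries as the floor. AT4G08680 had 2 reads in nrpe1 and 437 in Col-0, AT4G03650 had 4 and 173, and AT2G23500 had 1 and 233. These elements kept fewer nrpe1 reads in proportion than most ONSEN copies did, a difference that was not tested.

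Across the 11 genotypes, the gene bodies whose mean log2(CPM + 1) most resembled the family sum were AT2G05950 (Pearson's r = 0.990), AT1G12935 (0.990), AT3G28157 (0.986), AT1G13660 (0.985) and AT1G52610 (0.983), out of 22821 compared. All 5 are annotated as pseudogenes, as are the 8 copies, but the share of pseudogenes among the gene bodies compared was not counted. The 5 had at most 0.269 CPM in nrpe1, against 7.54 to 28.2 CPM in Col-0. Among the copies themselves, r with the family sum, which contains them, was 0.945 to 0.973 except for AT3G32415, at 0.819. The points share libraries, sets and depth, and r is given as a description.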

How the data were processed

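The deposited table holds read counts (whole numbers) for overlapping windows, 200 bp long and 150 bp apart, and average methylation levels per window and genotype, which the authors give as a fraction and which are printed as percent. UMI-tools, cutadapt, Bowtie2, Bismark and TAIR10 are named without versions in the submitters' processing notes. How reads with several mapping positions were treated is not stated in the labels, and this decides how reads fall among the 8 copies. Window counts were summed per gene of a RefSeq gene table by midpoint, so a read in the 50 bp shared by neighbouring windows can count for both. Sums over all genes were tested with edgeR 4.0.16 in R 4.3.3 (TMM scaling, count minimum 10, total minimum 15, quasi-likelihood F-test, Benjamini-Hochberg adjustment, threshold 0.05), with nrpe1 and Col-0 in 11 libraries and the other replicated genotypes in a model of 19. DESeq2 1.42.0 was an alternative. The procedure was tested on simulated data. The members and lists were chosen with earlier results of these data known. All 8 copies are named, and from the lists the members that passed the test and the one with the highest Col-0 CPM, plus the 5 gene bodies most like the family. DREB2A was named after its value was seen. Intervals are 95% exact Poisson or binomial intervals or counting intervals of ratios. Libraries of a set deviated together in nrpe1 and Col-0, with correlations of 0.400, 0.293, 0.338, 0.406 and 0.218 in the untagged set, gp3, gp4, gp5 and gp6. Some pairs of different sets were above the value of gp6: 0.308 (untagged nrpe1, gp2 Col-0), 0.263 (gp6 nrpe1, gp5 Col-0) and 0.230 (gp5 nrpe1, gp6 Col-0). The remaining pairs had at most 0.132. A set was taken as a pair wherever the replicate block was fitted, and the main fits held no block. Library pairs within nrpe1 or Col-0 had a chi-square per degree of freedom of 3.36 or more, and no pair was merged. Nothing in the labels ties replicates to separate plantings, and p-values cover the spread among libraries, part of which may be technical. Depth is given in the report.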

Additional observations from a re-analysis of the deposited data

Results flagged for a closer look

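Within 40 sets of values tested for a library that stands apart from its group (each copy's span and flank signal, the share of 3 copies and the flank to span ratio, in nrpe1 and in Col-0), 6 were marked, all in nrpe1 and none in Col-0. For independent, normally distributed values the rule marks about 1 in 20 groups. That rate need not hold for these low counts from shared libraries, so the 6 are not shown to be an excess. AT1G58140 was highest at 9.89 CPM and AT5G13205 at 15.1 CPM in the nrpe1 library of gp4. In the same library the flanks of AT3G61330 were highest, at 5.82 CPM. The other 3 were in the untagged nrpe1 library, where AT3G59720 stood at 3.35 CPM, its flanks at 6.69 CPM and the flanks of AT1G11265 at 5.74 CPM. All of these stayed below the lowest Col-0 library of the same copy. No explanation was tested.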

How the results depend on the processing

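Copies called lower in nrpe1 numbered 8 under library totals, class scaling, DESeq2 size factors, DESeq2, the looser filter, both other window assignments and the set as a replicate block, and 7 to 8 without single libraries. Counts of copies changed by over 1.5 times elsewhere. In dms5-1 against Col-0 they were 5 to 8 without single libraries, and in drd3-3 against Col-0 3 with the replicate block and 1 to 6 without single libraries. In drd3-3 against nrpe1, 2 copies were higher with DESeq2 and 2 with the replicate block, and 0 to 1 without single libraries. Copies with lower flanks in ago4 numbered 2 with library totals, 2 with class scaling, 2 with DESeq2 size factors, 4 with DESeq2 and 0 to 2 without single libraries, and in drd3-3 0 to 8 without single libraries. The replicate block changed no count of copies by over 1.5 times except those of drd3-3, and the cause of these shifts was not tested. Flank windows called lower in nrpe1 ranged from 5 to 27 without single libraries, since fewer passed the filter without a Col-0 library (5 to 13) and more without an nrpe1 library (21 to 29), and numbered 59 with the looser filter, where span windows numbered 122. Retained shares per library total averaged 8.41% in nrpe1, 87.5% in spt5l, 17.0% in drd1, 14.95% in dms3, 29.1% in suvh2, 24.6% in suvh2/suvh9, 14.7% in dms5-1 and 21.9% in drd3-3. The flank fits, the windows with both methylation levels, the removal of windows with 10 or more nrpe1 reads and the residual without the gp4 nrpe1 library were chosen after seeing the data. No called change of a copy turned its direction in any fit. Few reads limit single copies in nrpe1, dms5-1 and drd3-3, and methylation depth is unknown.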
